A study of Gallus gallus with 6 samples.

Results

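The genes described here encode the proteases that cut the extracellular matrix and cell-surface proteins, and the inhibitors that restrain them. They were taken from the gene table by name alone, as every entry of the ADAM, ADAMTS, ADAMTSL, MMP, TIMP, cathepsin, serpin and HTRA families with a standard symbol. The rule found 79 of the 17684 genes in the table, with 12 ADAM, 16 ADAMTS, 3 ADAMTSL, 14 MMP, 3 HTRA, 9 cathepsin, 2 TIMP and 20 serpin genes. The tissue was the cochlear duct of the chicken embryo at embryonic day 6.5, divided along its length into a proximal, a middle and a distal piece. The labels name no treatment or genotype for any group. Per the labels, tissue of each region was pooled, and the distal piece also held the prospective lagena, a vestibular organ at the tip. Each region has 2 libraries, and the column names place 1 of them in a first and the other in a second set, so that the comparison asks which genes differ along the duct within and across the sets.

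Metalloproteases of the ADAM, ADAMTS and MMP families hold a zinc ion in their active site and are made as inactive proenzymes. ADAMs are mostly anchored in the membrane, where they shed the outer parts of receptors and growth factors. ADAMTS enzymes are secreted and cut proteoglycans such as aggrecan and versican or trim procollagens, and MMPs cut collagens and many other matrix proteins. TIMPs block metalloproteases, while most serpins trap serine proteases. Cathepsins work chiefly in lysosomes, and HTRA proteins are serine proteases of the matrix or the mitochondrion.

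Levels are RPKM, reads scaled by gene length and by aligned reads per library, as the authors deposited them. The shallowest library of the first set had 9262860 alignments and the deepest 23537713, against 56103107 and 73918748 for the second, so values of the second set carry less counting error. The sets differed more than the regions. On the first principal component, which held 63.4% of the variance, the first set lay between -66.5 and -33.7 and the second between 43.1 and 46.5, with the proximal library of the first set farthest out. The otic epithelium list was present in all libraries, with summed levels of 1324 to 2306 RPKM over 12 genes in the table and no gene at 0. A difference is a log2 change with its SE on the log2(RPKM + 1) scale, on which low genes appear to differ less than they do. A fold or ratio within a set is of RPKM itself. Each SE and adjusted p of a single gene comes from limma with the set as a replicate block, unless the model without it is named. The model with the block, called the blocked model, was an alternative to the planned main model, which had none. Between the ends the SE without the block was 0.51 for ADAMTS1, 0.61 for ADAMTSL3 and 0.52 for ADAM19. With it the SE was 0.19, 0.22 and 0.25.

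Of the 79 genes, 55 reached 1 RPKM in at least 2 libraries and were tested. The 24 others, 3 ADAMs, 7 MMPs, 1 cathepsin and 13 serpins, never exceeded 0.968 RPKM, and SERPINA5 and SERPINA10 were listed at 0 in every library. Among these, the collagenase genes MMP1 and MMP13 and the stromelysin gene MMP3 stayed below 0.1 RPKM throughout. The gelatinase gene MMP9 measured 0.745 and 0.575 RPKM in the proximal, 0.426 and 0.569 in the middle piece and 0.202 and 0.167 in the distal libraries. The distal libraries were thus the lowest, under the level that was tested. SERPINA3, a member of the antichymotrypsin group, ran the other way, from 0 and 0.0747 RPKM proximally to 0.396 and 0.968 distally. In the first-set distal library, the shallowest, 1 read per kilobase is worth 0.108 RPKM, so MMP9 and SERPINA3 rest on few reads there.

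Between the ends of the duct, ADAMTS1 and ADAMTSL3 rose distally and ADAM19 fell, and these were the 3 members that passed at an adjusted p below 0.05 in the blocked limma model, where 0.526% of all 12559 genes tested passed. Without the block limma passed 0 members and 0.0% of all genes. The smallest adjusted p among members was then 0.699, while 8 members (14.5%) had an unadjusted p under 0.05, against 4.04% of all genes. They were 4 higher (7.27%, against 1.63% of all genes) and 4 lower distally (7.27%, against 2.41%). At an unadjusted p under 0.05 in the blocked model, 14 members (25.5%) were higher and 12 (21.8%) lower distally, against 7.12% and 7.59% of all genes. The 12 lower included TIMP4, which passed the filter through its proximal libraries alone. Over the 55 genes the median log2 change was 0.11, beside 0.10 over all genes tested. Each of the 3 calls was lost without the filter on low values, at adjusted p = 0.195 in the blocked model. With a pseudocount of 0.1 in that model, ADAMTS1 alone passed at 0.0421, against 0.0538 for ADAM19 and 0.0751 for ADAMTSL3.

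Without the proximal library of the first set, which stood apart, the blocked change was 2.24 for ADAMTS1, 1.93 for ADAMTSL3 and -1.98 for ADAM19. That fit keeps 1 residual degree of freedom and holds 1 proximal library, so whether members pass in it adds no support to the calls. With any 1 library left out the blocked model called between 4 members (7.27%), without the first-set distal library, and 34 (61.8%), without the second-set proximal library. The same fits called 0.94% and 55.7% of all genes, so that the larger count is near the share over all genes.

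Markers of several cell types were also unequal between the ends. Neuron markers summed to 1072 and 946 RPKM over 10 genes proximally and to 444 and 435 distally. All 9 tested were lower in both sets, 2 of them passed in the blocked limma model, and NEUROG1 was at 0 in at least 1 library. Over all genes tested, 24.7% were lower and 33.3% higher distally in both sets, and 0.526% passed in that model. Glia and neural crest markers summed to 587 and 509 RPKM over 8 genes proximally and to 276 and 338 distally, with 4 of 6 tested lower in both sets and 1 passing. Red blood cell markers summed to 5487 and 2669.5 RPKM over 7 genes proximally and to 1532 and 1182 distally, with all 6 tested lower in both sets. Cartilage and mesenchyme markers, 13 in the table, overlapped, at 832 and 1175 RPKM proximally and 1017 and 1328 distally. Endothelial markers summed to 80.5 to 89.6 RPKM over 10 genes proximally and 72.0 to 80.7 distally. Of these lists, the neuron list alone held a gene at 0 in a library. Otic epithelium markers were higher distally, at 1324 and 1581 RPKM summed proximally and 2306 and 2181 distally, with 7 of 12 tested higher and 3 lower in both sets and none passing. Among them OC90, an otoconial protein gene, had 1.09 ± 0.28 and EPCAM, an epithelial adhesion gene, 0.90 ± 0.28. The part of these cells in the protease values was not tested. In such pooled tissue, fewer cells of a type and less RNA per cell cannot be told apart.

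**Figure D1:**
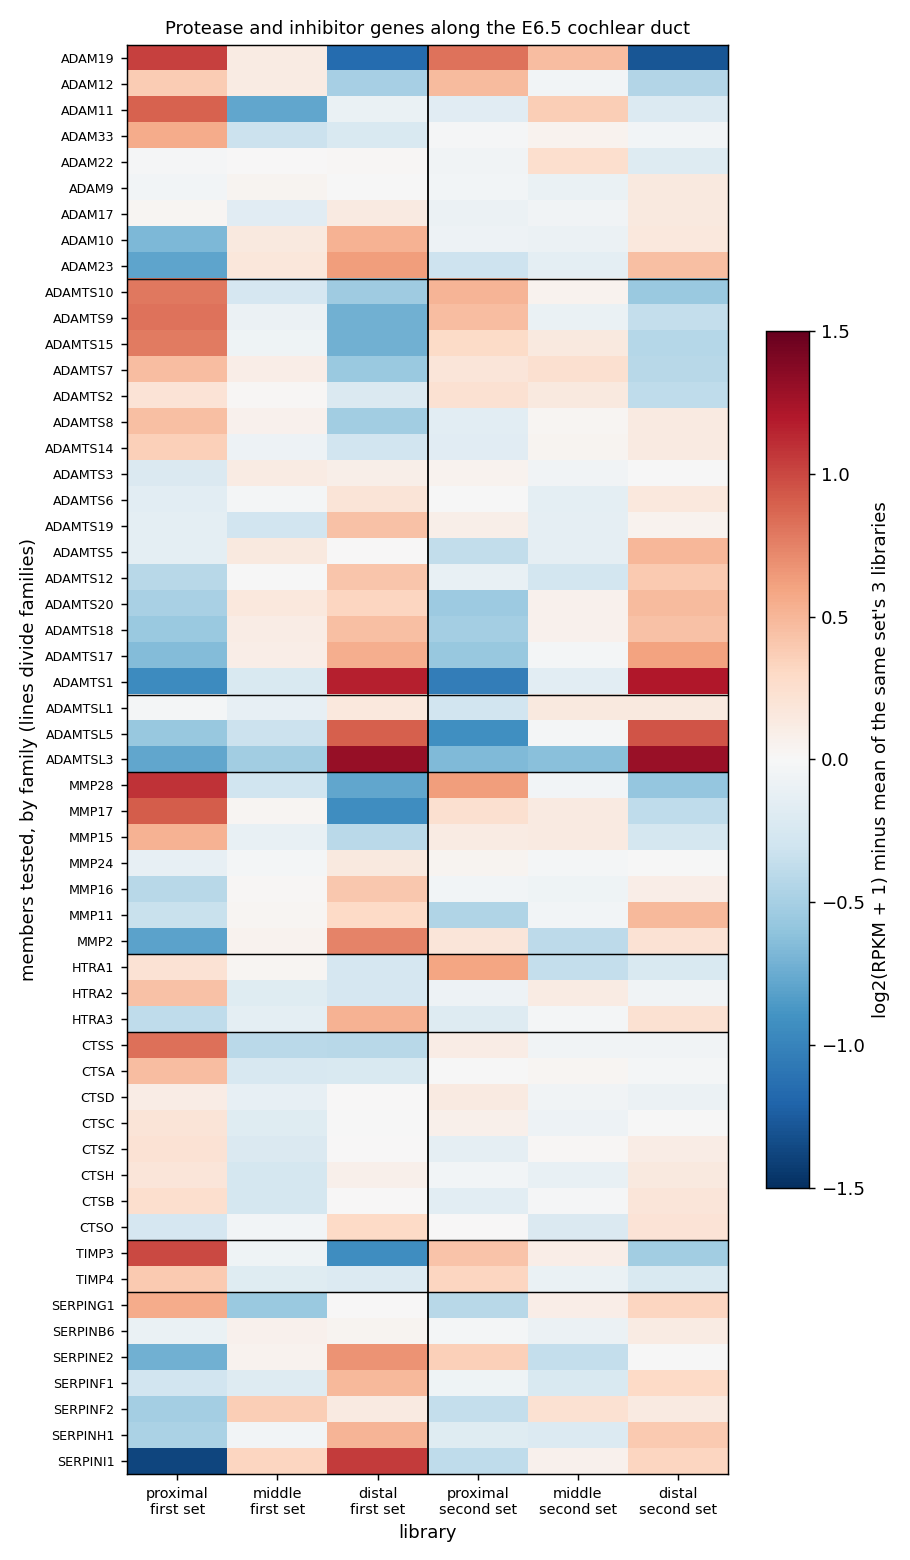
Levels of the 55 tested genes in the 6 libraries, as log2(RPKM + 1) minus the mean of the 3 libraries of the same set (colour scale in log2 units); rows are grouped by family and ordered by their distal-minus-proximal change. ADAM19 is low and ADAMTS1 and ADAMTSL3 are high in the distal column of both sets.

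The ADAMTS family held both directions. ADAMTS1, which cleaves aggrecan and versican, measured 18.2, 30.5 and 81.9 RPKM in the proximal, middle and distal libraries of the first set. In the second set it measured 31.3, 57.9 and 150.3. Both distal libraries lay above all others. The distal level was 4.50-fold the proximal in the first set and 4.81-fold in the second, a log2 change of 2.17 ± 0.19 with adjusted p = 0.0318 in limma (0.699 without the block). ADAMTS1 was also the most abundant ADAMTS gene on average (61.7 RPKM over the 6 libraries). It made up 19.8% and 16.2% of the summed ADAMTS RPKM in the proximal libraries and 49.6% and 40.6% in the distal libraries.

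ADAMTS17, a gene whose loss in humans causes short stature and lens defects, followed the same order at lower levels. It measured 10.3, 18.1 and 24.9 RPKM along the duct in the first set and 23.2, 34.2 and 53.5 in the second. The distal libraries lay above both proximal ones, by 2.43-fold and 2.30-fold within the sets (log2 change 1.19 ± 0.20), and the gene missed the threshold in limma (adjusted p = 0.0774). ADAMTS18 and ADAMTS20, a gene linked to pigment cell development in mice, had changes of 0.98 ± 0.20 and 0.91 ± 0.21. ADAMTS18 measured 6.92, 11.7 and 14.9 RPKM in the first set and 14.9, 22.7 and 29.7 in the second. ADAMTS20 measured 5.10, 8.52 and 9.70 RPKM in the first set and 16.6, 25.9 and 34.7 in the second. The order proximal, middle, distal was thus the same in both sets for these 4 ADAMTS genes, though neither ADAMTS18 nor ADAMTS20 passed (limma, adjusted p = 0.108 and 0.125).

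ADAMTS10, ADAMTS9 and ADAMTS15 ran in the opposite direction. ADAMTS10, which binds fibrillin microfibrils, measured 5.74, 2.29 and 1.69 RPKM in the first set and 7.79, 5.39 and 3.18 in the second. Its distal and proximal libraries did not overlap, with a change of -1.20 ± 0.25. The versican-cleaving enzyme gene ADAMTS9 measured 8.96, 4.35 and 2.44 RPKM in the first set and 16.3, 10.8 and 8.79 in the second (-1.18 ± 0.26). ADAMTS15, which also cuts versican, measured 5.33, 2.54 and 1.25 RPKM in the first and 8.17, 7.27 and 4.57 in the second set (-1.11 ± 0.28). For both, each distal value lay under each proximal value, but by less in the second set, where the distal level was 0.539 and 0.559 of the proximal against 0.272 and 0.234 in the first. None of the 3 passed in limma (adjusted p = 0.109, 0.119 and 0.158).

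The procollagen-trimming genes showed no common direction. ADAMTS3 had a change of 0.12 ± 0.23 and ADAMTS14 of -0.17 ± 0.30, and each had opposite signs in the sets. ADAMTS2, at 0.153 to 2.14 RPKM, had -0.52 ± 0.22. ADAMTS7 and ADAMTS12, related enzymes that cut the cartilage protein COMP, pointed apart at -0.80 ± 0.23 and 0.67 ± 0.25, with the same sign in both sets each. The aggrecanase gene ADAMTS5 had 0.51 ± 0.28. Of 16 ADAMTS genes, all of which were tested, 7 were higher and 5 lower distally in both sets, where 33.3% and 24.7% of all genes were. The summed ADAMTS level was 92.1 and 193.2 RPKM in the proximal and 165.3 and 370.6 in the distal libraries. Without ADAMTS1 the sums were 73.9 and 161.9 RPKM proximally and 83.4 and 220.3 distally.

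ADAMTSL proteins resemble ADAMTS enzymes but lack the protease domain and act in the matrix as binding proteins. ADAMTSL3 measured 0.395, 0.671 and 4.94 RPKM along the first set and 2.02, 2.10 and 10.7 along the second. Both distal libraries lay above all others, while proximal and middle values of a set lay close together. The distal to proximal ratio was 12.5 in the first and 5.31 in the second set, and the log2 change of 2.02 ± 0.22 passed in limma (adjusted p = 0.0382, and 0.830 without the block). In the proximal library of the first set, 1 read per kilobase is worth 0.069 RPKM. ADAMTSL5 measured 1.48, 1.93 and 5.81 RPKM in the first and 0.539, 1.86 and 4.61 in the second set. Its distal libraries lay above all others, with a change of 1.66 ± 0.26 that missed the threshold (limma, adjusted p = 0.0706). ADAMTSL1, at 1.54 to 7.03 RPKM, had 0.30 ± 0.24.

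**Figure D2:**
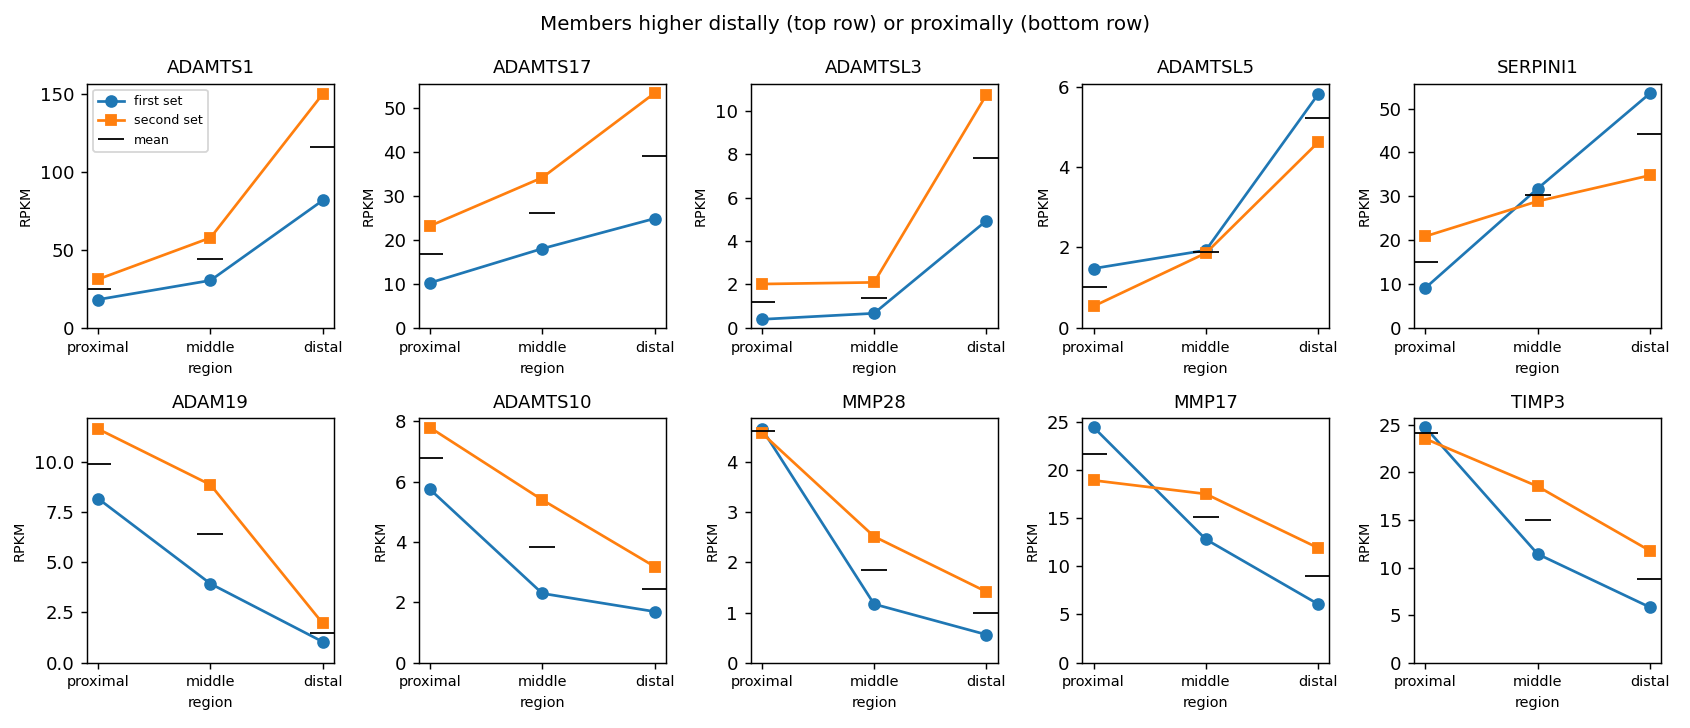
RPKM by region for 10 of the named genes, with the first set as circles, the second as squares and the mean of both as a horizontal tick. The 10 genes were taken from those named for distal and proximal libraries that do not overlap, so every panel shows this by selection. The sets differ in level, as for ADAMTSL3 (0.395 and 2.02 RPKM proximally).

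Among the ADAMs, ADAM19 fell distally. ADAM19, a membrane protease that sheds neuregulins, measured 8.17, 3.93 and 1.04 RPKM along the first set and 11.6, 8.87 and 1.96 along the second. Both distal values were the lowest of their set and lay under all other libraries. Distal levels were 0.127 and 0.168 of the proximal ones (log2 change -2.13 ± 0.25, limma adjusted p = 0.0442, and 0.731 without the block). ADAM12, a related enzyme of muscle and mesenchyme, measured 3.30, 2.60 and 1.34 RPKM in the first set and 5.25, 3.37 and 2.29 in the second. Its order was the same as that of ADAM19, with a change of -0.90 ± 0.22 that did not pass (limma, adjusted p = 0.155).

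The sheddases ADAM10 and ADAM17, which cut Notch receptors, cadherins and growth factor precursors, were expressed in every piece. ADAM17 measured 18.1 to 28.5 RPKM outside the distal piece and 22.5 and 32.9 in it (0.17 ± 0.20). ADAM9 was as even, at 19.0 to 32.3 RPKM (0.11 ± 0.20). ADAM10 measured 10.02, 18.3 and 24.2 RPKM in the first set and 30.3, 30.0 and 35.6 in the second. Its change was 0.71 ± 0.29, and -0.04 without the first-set proximal library in the model with no block.

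ADAM11, ADAM22 and ADAM23 have no working protease site and serve as adhesion proteins and receptors of neurons. ADAM23 measured 1.69, 4.26 and 6.19 RPKM in the first set and 9.89, 11.2 and 17.5 in the second, a change of 1.09 ± 0.28. With 1 library left out the change ranged from 0.73 to 1.46 with the block and from 0.08 to 2.10 over both models. The sets overlapped between the ends, as the second-set proximal value exceeded the first-set distal value. ADAM11 and ADAM22 had -0.51 ± 0.51 and -0.05 ± 0.24. Neuron markers, given above, were lower distally in both sets, and their part in these values was not tested.

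MMP15, a membrane-type MMP, dominated its family. It measured 296 and 219 RPKM in the proximal, 192 and 221 in the middle piece and 155 and 167 in the distal libraries. Both distal values lay under the rest, at 0.525 and 0.766 of the proximal level, with a change of -0.65 ± 0.24 that did not pass (limma, adjusted p = 0.302). It held 80.6% and 69.1% of the summed MMP level proximally and 62.5% and 61.4% distally. The other MMPs summed to 71.4 and 97.8 RPKM proximally and to 93.0 and 105.1 distally.

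MMP28 and MMP17 were low distally as well. MMP28 (epilysin), a secreted MMP of epithelia, measured 4.67, 1.17 and 0.559 RPKM in the first set and 4.58, 2.52 and 1.42 in the second. All proximal values lay above all middle values, and in each set the distal value was below the middle one (-1.54 ± 0.27, limma adjusted p = 0.0847). MMP17, an MMP tethered to the membrane by a lipid anchor, measured 24.4, 12.8 and 6.07 RPKM in the first and 18.9, 17.5 and 11.9 in the second set. The distal libraries did not overlap with the others, with a change of -1.24 ± 0.33 (limma, adjusted p = 0.170).

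MMP11 and MMP2 stood higher distally. MMP11 (stromelysin-3), a gene of remodelling stroma, measured 16.7, 21.8 and 26.3 RPKM in the first and 17.6, 23.7 and 34.7 in the second set. The 3 regions did not overlap at all, and the change was 0.78 ± 0.21 without passing (limma, adjusted p = 0.168). The gelatinase gene MMP2 measured 15.5, 28.8 and 47.3 RPKM in the first set but 33.0, 21.9 and 33.9 in the second. The distal to proximal ratio was 3.05 in the first set and 1.03 in the second (0.79 ± 0.40). Membrane-type genes MMP24 and MMP16 had 0.11 ± 0.21 and 0.48 ± 0.26. Of the 7 tested MMPs, 3 were higher and 3 lower distally in both sets, where 33.3% and 24.7% of all genes were.

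Both TIMP genes had their lowest level of each set in the distal piece. TIMP3, a matrix-bound inhibitor of MMPs, ADAM17 and aggrecanases, measured 24.7, 11.4 and 5.82 RPKM in the first and 23.5, 18.5 and 11.8 in the second set. Proximal levels nearly coincided between the sets while distal levels differed, with distal to proximal ratios of 0.235 and 0.500. The change of -1.43 ± 0.29 missed the threshold (limma, adjusted p = 0.105), and passed in the blocked model after quantile normalization, where 4 members (7.27%) and 2.05% of all genes passed. TIMP4 was low, at 1.46 and 1.07 RPKM in the proximal, 0.645 and 0.552 in the middle piece and 0.622 and 0.422 in the distal libraries. Its change between the ends was -0.57 ± 0.21 (limma, adjusted p = 0.304). Only its proximal libraries reached the 1 RPKM of the filter. That the proximal values lay above all others was thus fixed by the filter and adds no support.

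In the serpin family 5 of the 7 tested members were higher distally in both sets and none lower, against 33.3% and 24.7% of all genes. The other 13 serpins were not tested, and no tested serpin passed between the ends in the blocked model. SERPINI1 (neuroserpin), an inhibitor of tissue plasminogen activator made by neurons, measured 9.10, 31.8 and 53.5 RPKM in the first set and 20.9, 28.9 and 34.8 in the second. The order of the regions was the same in both sets, and neither middle nor distal values overlapped with proximal ones. The distal to proximal ratio was 5.87 in the first set and 1.67 in the second, with a change of 1.57 ± 0.42 (limma, adjusted p = 0.171). Its direction was opposite to that of the neuron list, whose tested genes were all lower distally. The part of neurons in the SERPINI1 values was not tested.

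SERPINH1 (HSP47), a collagen chaperone that inhibits no protease, was the most abundant serpin gene on average. It measured 67.6, 91.6 and 135.2 RPKM in the first set and 140.9, 138.6 and 209.5 in the second. The distal library was the highest of each set, but the ends overlapped across the sets (0.78 ± 0.21, limma adjusted p = 0.186). SERPINF1 (PEDF), an antiangiogenic serpin, measured 15.4 and 10.3 RPKM in the distal libraries against 6.83 to 9.22 elsewhere (0.57 ± 0.23). SERPINF2, the antiplasmin gene, measured 0.418 and 0.710 RPKM proximally, 1.60 and 1.57 in the middle and 1.22 and 1.42 distally. It was the 1 member whose middle value was the highest in both sets, a pattern of 1.82% of members and 6.6% of all genes.

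SERPING1, the inhibitor of complement C1, measured 176.5, 80.8 and 120.1 RPKM in the first set and 57.7, 83.0 and 96.9 in the second. The proximal library was the highest of the first set and the lowest of the second (0.09 ± 0.40). SERPINE2, a thrombin and plasminogen activator inhibitor, also differed in sign between the sets, with ratios of 2.80 and 0.766. SERPINB6 stayed at 8.64 to 15.3 RPKM (0.14 ± 0.21).

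Cathepsins had the highest summed level of the 8 families in every library. CTSB, a cysteine protease, had the highest mean over the 6 libraries of all members (233 RPKM, against 208 for MMP15), at 346 and 152 RPKM in the proximal, 243 and 169 in the middle piece and 293 and 193 in the distal libraries. In the second set MMP15 was higher in the proximal and middle libraries and SERPINH1 in the distal one. CTSB values followed the set rather than the region, and the change was 0.05 ± 0.24. CTSA, CTSC, CTSD, CTSH and CTSZ averaged 42.6 to 66.9 RPKM, with changes from -0.36 to 0.04. The 8 tested cathepsins spanned -0.70 to 0.38, a range narrower than that of the ADAMTS genes (-1.20 to 2.17), and no cathepsin passed in either model. CTSO stood at 0.38 ± 0.23, with distal values of 8.45 and 7.17 RPKM above the others (5.10 to 6.44).

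CTSS, a cathepsin of antigen-presenting cells, measured 11.3 RPKM in the first-set proximal library and 3.26 to 4.26 in all others. The second-set proximal value was 3.79, and the change was -0.70 ± 0.34. The summed level of 11 leukocyte markers was also highest there, at 74.1 RPKM against 45.7 to 64.3 in the others. CD74, the most abundant of those tested, was higher in the first-set distal library (42.8 against 33.5 RPKM). CSF1R and LAPTM5 also peaked in other libraries, while the other tested leukocyte markers were highest in the first-set proximal library. Of 9 tested leukocyte genes 6 were lower distally in both sets and 1 higher, against 24.7% and 33.3% of all genes. CYBB was at 0 in at least 1 library. The part of these cells in the CTSS values was not tested.

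HTRA1, a secreted protease that degrades fibronectin and proteoglycans, measured 12.7 and 19.3 RPKM in the proximal and 8.91 to 11.1 in the other libraries (distal against proximal -0.64 ± 0.26). HTRA3, a close relative, measured 0.601 and 1.42 RPKM proximally and 1.99 and 2.22 distally (0.66 ± 0.24). Their ends did not overlap, in opposite directions. HTRA2, which acts in mitochondria, measured 79.7 RPKM in the first-set proximal library and 31.4 to 51.4 elsewhere (-0.34 ± 0.26). None of the 3 passed in limma (adjusted p = 0.338, 0.301 and 0.524).

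**Figure D3:**
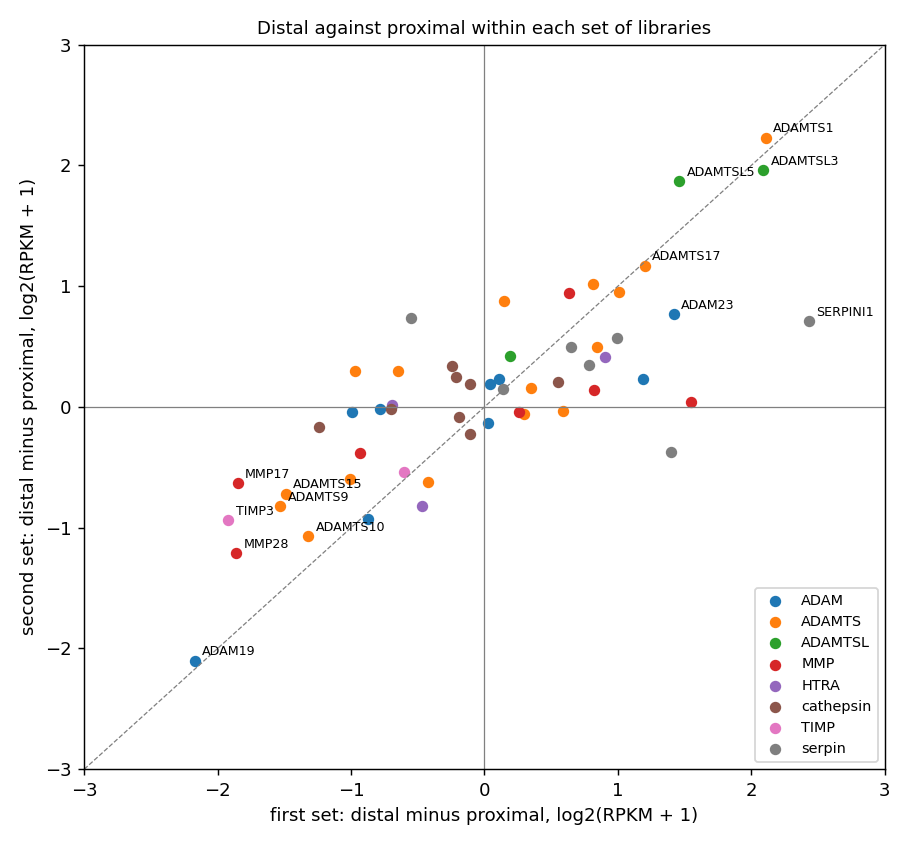
Distal minus proximal log2(RPKM + 1) in the first set (x axis) and the second set (y axis) for the 55 tested genes, coloured by family, with genes of at least 1 log2 unit in the mean named; the dashed line marks equal change. ADAMTS1, ADAMTS17, ADAMTSL3 and ADAM19 lie near the line, while SERPINI1, MMP17 and TIMP3 lie farther from 0 on the axis of the first set.

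Distal and proximal libraries did not overlap for 24 of the 55 genes. The 12 higher distally made up 21.8% of members, against 13.1% of all genes tested, and the 12 lower 21.8%, against 10.3%. A difference of at least 2-fold on the log2(RPKM + 1) scale in both sets was found for 4 genes higher distally (ADAMTS1, ADAMTS17, ADAMTSL3 and ADAMTSL5) and 3 lower (ADAM19, ADAMTS10 and MMP28). These were 7.27% and 5.45% of members, against 1.16% and 1.92% of all genes. The sets were also read separately along all 3 pieces. From proximal through middle to distal, 10 members (18.2%) had ascending levels in both sets, against 8.55% of all genes. They were ADAM23, ADAMTS1, ADAMTS17, ADAMTS18, ADAMTS20, ADAMTSL3, ADAMTSL5, HTRA3, MMP11 and SERPINI1. Another 11 (20.0%) had descending levels in both sets, against 5.61% of all genes. The 11 were ADAM12, ADAM19, ADAMTS2, ADAMTS9, ADAMTS10, ADAMTS15, CTSS, MMP17, MMP28, TIMP3 and TIMP4. These counts describe the order of 3 libraries per set, require no smallest step and carry no test. For CTSS the distal level was 0.989 and 0.998 of the middle level in the first and second set. TIMP4, among the 12 lower without overlap and the 11 descending, passed the filter through its proximal libraries alone. Its higher proximal level therefore adds no support to either count. Its first-set values were 0.645 RPKM in the middle and 0.622 distally, where 1 read per kilobase is worth 0.108 RPKM. The F test over all 3 pieces passed 0 members in limma with or without the block, against 0.0717% of all genes with it and 0.0% without. At an unadjusted F p under 0.05 there were 20 members (36.4%) with the block and 7 (12.7%) without, against 10.1% and 2.36% of all genes.

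Between the middle and the proximal piece no member passed with or without the block, as for all genes (0.0%). In the blocked limma model 10 members (18.2%) had an unadjusted p under 0.05, against 3.85% of all genes. Of the 10, 6 were higher in the middle piece (10.9% of members, against 1.85% of all genes) and 4 lower (7.27%, against 2.01%). Without the block the count at an unadjusted p under 0.05 was 0, against 0.884% of all genes (0.263% higher and 0.621% lower). Libraries did not overlap for 4 members higher in the middle piece (7.27%, against 5.76% of all genes), ADAMTSL5, MMP11, SERPINF2 and SERPINI1. The same held for 6 lower members (10.9%, against 4.82%), ADAMTS10, HTRA1, MMP17, MMP28, TIMP3 and TIMP4. For TIMP4 the filter fixed this in advance, as given above. No member was 2-fold apart in both sets, beside 0.223% (higher) and 0.446% (lower) of all genes. In both sets 13 members (23.6%) were higher and 16 (29.1%) lower in the middle piece, against 20.8% and 14.6% of all genes. SERPINI1 had 1.07 ± 0.42 and MMP28 -1.03 ± 0.27, and these were the 2 changes of at least 1 without overlap. The blocked adjusted p in limma was 0.888 for SERPINI1 and 0.716 for MMP28. The middle piece had 3 members at its lowest in both sets, ADAMTS19, CTSC and CTSH, a pattern of 5.45% of members and 4.83% of all genes.

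Between the distal and the middle piece 0 members and 0.0% of all genes passed in limma with or without the block. At an unadjusted p under 0.05, 9 members (16.4%) were found with the block and 4 (7.27%) without, against 7.64% and 1.67% of all genes. With the block 6 were higher (10.9%, against 2.61% of all genes) and 3 lower distally (5.45%, against 5.03%). Without it 3 were higher (5.45%, against 0.581%) and 1 lower (1.82%, against 1.09%). Libraries did not overlap for 12 members higher (21.8%) and 5 lower distally (9.09%), against 12.1% and 8.92% of all genes. ADAMTSL3 had 1.88 ± 0.22, with distal to middle ratios of 7.36 and 5.12, and ADAMTS1 had 1.38 ± 0.19, with ratios of 2.69 and 2.60. ADAM19 had -1.51 ± 0.25, at 0.264 and 0.221 of the middle level, and ADAMTSL5 1.09 ± 0.26. In limma the blocked adjusted p was 0.156 for ADAMTSL3, 0.158 for ADAMTS1, 0.189 for ADAM19 and 0.300 for ADAMTSL5. Comparisons that share a piece also share its libraries, so these values are not separate evidence beside those of the ends. For ADAMTSL3 the distal minus middle change (1.88) was near the whole distal minus proximal change (2.02), whereas the middle minus proximal change was 0.15 ± 0.22.

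The sets differed by family as well as by region. In the second set 15 of 16 ADAMTS and 8 of 9 tested ADAM genes were higher than in the first in every region, where 48.2% of all genes were. In contrast, 6 of 8 tested cathepsins were lower in the second set in every region, against 21.0% of all genes. The median second-minus-first difference of ADAMTS genes was 0.96 proximally, 0.93 in the middle piece and 1.14 distally. For cathepsins it was -0.76, -0.29 and -0.28, and for all genes 0.46, 0.24 and 0.22. Sets also differed in depth, and the labels name more than 1 library kit without tying a kit to a library, so set, depth and kit cannot be told apart.

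**Figure D4:**
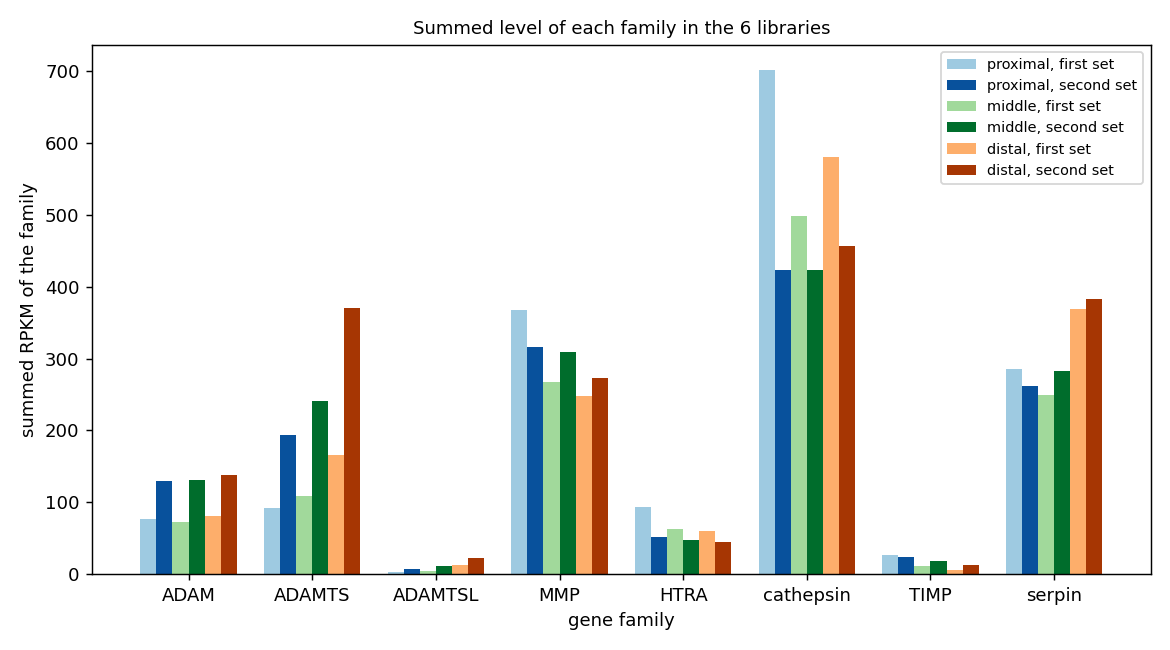
Summed RPKM of each family (bars, from 0) in the 6 libraries, with light bars for the first and dark bars for the second set. ADAMTS sums are higher distally and in the second set, and cathepsin sums are highest in the first-set proximal library (701 RPKM).

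Other genes of the protease network, taken from a list of activators, cofactors and inhibitors outside the 8 families, showed no call. Of 37 listed, 27 were in the table and 22 were tested. Between the duct ends 0 of the 22 passed in either direction with or without the block, against 0.526% and 0.0% of all genes. Their median change was -0.07. SPOCK1 (testican-1), a matrix proteoglycan, measured 79.4 and 118 RPKM proximally and 137 and 254 distally (0.94 ± 0.20). BSG (basigin), an inducer of MMPs, measured 340 and 373 RPKM proximally and 751 and 494 distally (0.77 ± 0.27), and the ends did not overlap for either gene. The membrane protease gene ST14 (matriptase) had 0.59 ± 0.20 and FAP, a fibroblast peptidase, 0.56 ± 0.26. Adjusted p for these 4 in limma lay between 0.115 and 0.390. They were named for the smallest p without the block, and all 4 were higher distally. In both sets 7 of the 22 tested were higher and 9 lower, where 33.3% and 24.7% of all genes were. Among the 9 lower was PAPPA (-1.03 ± 0.25, limma adjusted p = 0.142).

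Among listed substrates, 17 of 23 were tested. Between the ends 0 of them passed with or without the block, against 0.526% and 0.0% of all genes (median -0.02). ACAN (aggrecan), cut by ADAMTS1, measured 0.335 and 1.12 RPKM proximally and 1.70 and 2.93 distally (0.95 ± 0.22). VCAN (versican), also cut by ADAMTS1 and more abundant, pointed the other way, at 11.1 and 52.2 RPKM proximally and 10.6 and 29.9 distally (-0.42 ± 0.25, limma adjusted p = 0.454). MATN4, a matrilin of cartilage matrix, measured 93.0 and 77.5 RPKM against 153 and 202 (1.04 ± 0.27). ACAN and MATN4 were higher distally without overlap between the ends. DLL1, a Notch ligand that ADAMs shed, was lower without overlap, at 22.8 and 29.9 RPKM proximally and 7.21 and 17.9 distally (-1.12 ± 0.32). The ephrin gene EFNA5 had -1.27 ± 0.26. Adjusted p for ACAN, MATN4, DLL1 and EFNA5 in limma lay between 0.111 and 0.210. In both sets 5 of the 17 tested were higher and 7 lower distally, where 33.3% and 24.7% of all genes were.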

How the data were processed

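Values are RPKM per gene, as deposited by the authors in 1 table of 6 libraries. TopHat 1.4.0 and Partek 6.6 were used, per the submitters' processing notes. Genome build, annotation and strand use were not given in the sources used here. No positions or sequences are printed. Columns name the region and the set, not the single sample, and 0 columns were left unused. The entry holding alignments per library was kept out. From the values, log2(RPKM + 1) was computed, and genes with 1 RPKM in at least 2 libraries entered limma 3.58.1 (R 4.3.3). The planned main model had a term for region and none for the set, used all 6 libraries and moderated the variances with a trend. Tests were two-sided, with Benjamini-Hochberg adjustment over all 12559 genes and a threshold of 0.05. The blocked alternative added the set as a replicate block.

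The pairing comes from the column names. Across genes, set differences of proximal and middle correlated at 0.659, of proximal and distal at 0.655 and of middle and distal at 0.885, each over 0.1. Residual degrees of freedom were 3 without and 2 with the block. The labels mention separate biological replicates without tying them to libraries, so p-values measure the spread between these libraries, which may be technical. The fits were also run on simulated data with known changes. The data simulated for the model without the block held no set difference, unlike the real data. That run therefore does not show how this model behaves here.

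Members, gene lists and tests were chosen with earlier results of these data known. Genes were named by a rule: members past the threshold; members at least 1 log2 unit apart without overlap, by the smallest p without the block (up to 10 per direction for the ends, 5 for the other pairs); up to 4 per family by the smallest F p; both TIMPs; the 10 most abundant members; and up to 4 per pathway list. Genes named beside these were chosen after their values were seen. Of the 79 symbols, 69 are symbols in the RefSeq table of assembly GRCg7b and 5 are synonyms there.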

Additional observations from a re-analysis of the deposited data

How the results depend on the processing

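Without the block 0 members passed in any comparison, under every alternative run. With the replicate block, which pairs the sets, 66 genes and 3 members passed between distal and proximal, and 9 genes in the F test. Quantile normalization with the block gave 257 genes and 4 members between the ends, 3 genes between middle and proximal, and 65 genes and 3 members in the F test. A pseudocount of 0.1 with the block gave 36 genes and 1 member between the ends.

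Leaving out 1 library at a time, with or without the block, gave 0 to 6994 genes and 0 to 34 members between the ends, 0 to 5595 and 0 to 29 between middle and proximal, 0 to 1231 and 0 to 15 between distal and middle, and 0 to 6581 and 0 to 33 in the F test. With the block these fits keep 1 residual degree of freedom, and a region left with 1 library is assumed to vary like the others. The cause of the wide ranges was not tested. Over them the members' median change ran from -0.09 to 0.37, -0.32 to 0.22 and -0.16 to 0.41 for the 3 pairs in the same order. With the block alone it ran from 0.08 to 0.14, -0.08 to 0.00 and 0.10 to 0.18. It was 0.00 for each pair without the filter, and 0.17 between distal and middle in the first set alone.

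Of 40 values of named members, 31 kept their sign. In the first set alone CTSB was -0.24, CTSH -0.11 and SERPING1 -0.55, and in the second alone HTRA2 was 0.02. Leaving out 1 library, the distal minus proximal value ran from -0.04 to 1.46 for ADAM10, -0.38 to 0.99 for ADAMTSL1, -0.77 to 0.05 for CTSA, -0.54 to 0.64 for CTSB, -0.33 to 0.05 for CTSC, -0.64 to 0.31 for CTSD, -0.31 to 0.39 for CTSH, -0.99 to 0.32 for HTRA2 and -0.71 to 0.89 for SERPING1. These ends include fits without the block, in which a dropped library leaves the set difference in the region change. With the block ADAM10 (0.26 to 1.16), ADAMTSL1 (0.12 to 0.49), CTSA, CTSC and CTSD kept their sign, and CTSB, CTSH, HTRA2 and SERPING1 did not.

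Alternatives for the next counts were chosen after seeing the data. A filter at 5 RPKM left 2 members 2-fold higher in both sets and 6 descending, and a pseudocount of 0.1 gave 5 that were 2-fold lower. The shares of all genes under these settings are not given here, so these counts cannot be set against a background.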
